A study of Rattus norvegicus with 30 samples.

Results

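The livers of 6 rats that had lost 70% of the liver (PH70) were compared with those of 6 rats that had no operation, 12 of the 30 arrays of a study of resections of different size. The members were chosen by the treatment on the labels, which was 70% partial hepatectomy for rats 37, 58, 59, 97, 136 and 139 and none, under a title of baseline, for rats 145, 147, 148, 150, 151 and 152. All 30 animals were wildtype Wistar rats, assigned to the groups at random according to the design text. In operated rats the liver was taken 24 hours after surgery, a time that does not apply to the unoperated rats. The liver was snap frozen, and a small piece of it used for RNA. The labels give neither the sex nor the age of the rats, nor the lobe from which the piece came. The other 3 groups, each of 6 rats, had a sham operation or lost 30 or 90% of the liver. They entered the estimate of the spread, and the sham group is set beside the results below.

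Partial hepatectomy removes whole lobes, and the remnant regains the lost mass because hepatocytes, which rest between divisions in the adult liver, grow and then re-enter the cell cycle. DNA synthesis in rat hepatocytes peaks about a day after the operation, with mitosis following it, while the remnant has to go on making plasma proteins, bile acids and urea. The operation itself also calls up the acute phase response, in which cytokines acting through STAT3 make hepatocytes secrete defence proteins. A comparison with unoperated rats therefore holds the effects of surgery and of tissue loss together, and these data cannot part them without the sham group.

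Each liver's RNA was hybridised to 1 whole-transcript array of the Affymetrix Rat Gene ST kind, and 18166 genes were tested. Values are on a log2 scale, and each probe set had been centred on its median over the 30 arrays before deposit, so a value of 0 is the middle of the series and says nothing of how abundant a transcript is. For the same reason the absence of liver or other cell type markers could not be checked. A log2 difference is the mean of PH70 minus that of the unoperated rats, its standard error (SE) is limma's, and a gene was called where limma's p, adjusted by the Benjamini-Hochberg method, was below 0.05. The p-values measure the spread between animals within groups, pooled over all 5 groups. In a piece of whole liver, fewer cells of a type and less RNA per cell cannot be told apart. The unoperated rats bear the highest numbers of the series, 145 to 152 against 37 to 139 in PH70, so whatever goes with the rat number, whose meaning the labels do not give, and the lack of an operation cannot be told apart.

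PH70 rat 139 stood apart from its group, and some of the results below are also given without it. Of the 195 genes called higher by at least 1 log2 unit, each of the other 5 PH70 rats lay above every unoperated rat in 192 to 195, and rat 139 in 76. Of the 112 genes called lower by at least 1 unit, the other 5 rats lay below every unoperated rat in 107 to 112, and rat 139 in 96. Both sets of genes were chosen by the means of these same rats, so counts near the totals follow in part from that choice. Within these sets rat 139 shared most of the large falls of its group and a minority of the large rises.

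Between PH70 and unoperated livers 3358 genes were called, 1692 higher and 1666 lower, or 9.31% and 9.17% of those tested. The median difference over all genes was 0.001 and the median SE 0.08. The 6 PH70 rats all lay above the 6 unoperated rats for 649 genes (3.57%) and below them for 782 genes (4.3%). Without rat 139 the calls came to 1933 higher (10.6%) and 1947 lower (10.7%), and 3194 of the 3358 calls were kept. The non-overlapping genes then numbered 1571 higher and 1491 lower, with 5 rats against 6. The largest rise was that of Lcn2 and the largest fall that of Sult2a1, both described below.

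**Figure D1:**
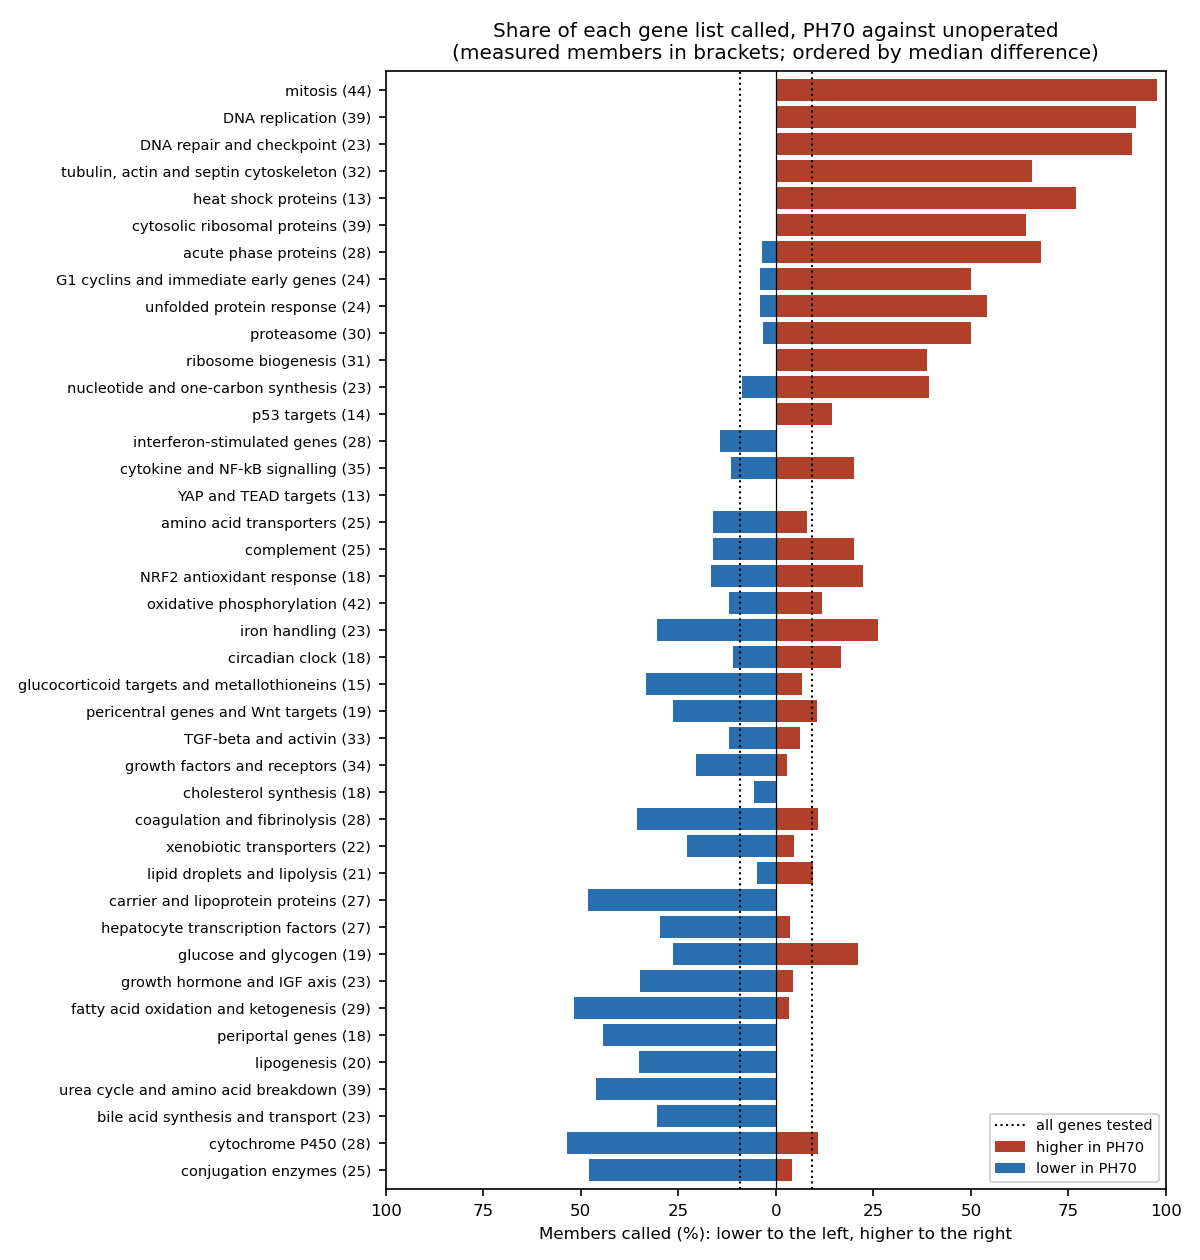
Share of the measured members of 41 gene lists, ordered by median difference, called higher (red, to the right) or lower (blue, to the left) in PH70 than in unoperated livers, in percent, with the share among all genes tested as dotted lines. Lists of the cell cycle lie at the top, with 43 of 44 mitosis genes called higher, and those of detoxification at the bottom, with 12 of 25 conjugation enzymes called lower; polyamine synthesis, with 9 measured members, and the marker lists are not drawn.

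Genes of DNA replication were higher in PH70 livers. Of 39 measured members of a list of replication genes 36 rose and 0 fell, with a median difference of 0.99, and without rat 139 the count was 38 and the median 1.16. Mcm6, a subunit of the helicase that opens replication origins, had values of -0.71, -0.52 and -0.30 in unoperated rats (lowest, median and highest of 6) and of 0.00, 2.22 and 2.44 in PH70 rats. The groups did not overlap, although the lowest PH70 value, that of rat 139, lay closer to the unoperated rats than to the other 5, which started at 2.08. Mcm6 was 5.3-fold higher in PH70 (log2 difference 2.41, SE 0.35, adjusted p = 1.7e-05). Rrm2, the subunit of ribonucleotide reductase that is limiting for the supply of deoxynucleotides, had the third largest rise of all named genes. It ranged from -0.72 to 0.20 around a median of -0.13 in unoperated rats and from -0.05 to 3.99 around 3.49 in PH70 rats. Only rat 139 overlapped with the unoperated group, and the others lay at 2.98 or above. The difference was 3.13 (SE 0.59, adjusted p = 0.00035, 8.74-fold), and 3.73 without rat 139. Pcna, the sliding clamp of the replicative polymerases, ran from -0.57 to -0.15 in unoperated and from 0.08 to 2.17 in PH70 rats, a difference of 1.81 (SE 0.31, adjusted p = 0.00011). Its groups did not overlap either.

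Histone genes, whose messages are made in S phase to package the new DNA, supplied 6 of the 20 largest rises. They were not counted as a list, so how many histone genes changed is not given. H2bc8, a histone H2B, stood at -0.55, -0.40 and -0.01 in unoperated rats and at 0.75, 2.52 and 3.09 in PH70 rats, with no overlap and a difference of 2.62 (SE 0.36, adjusted p = 8.4e-06). The others of the 6 were H2ax, the variant that is phosphorylated at DNA breaks (2.78), H4c14 (2.49), Hist2h2bb (2.29), H1f5, a linker histone (2.26), and H2ac4 (2.24). In all 6 rat 139 was the lowest of its group. Histone genes of a class are near copies of each other, so how a probe set's signal divides among them is uncertain.

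Mitosis genes rose in nearly every member. Of 44 measured, 43 rose and 0 fell, the median difference was 1.53, and without rat 139 all 44 rose with a median of 1.89. After a second quantile normalization of the arrays the median was 0.97. Cdk1, the kinase that drives entry into mitosis, was tightly grouped in unoperated rats, at -0.15, 0.00 and 0.05. In PH70 rats it ran from -0.36 in rat 139 over a median of 2.34 to 2.71. The difference was 1.89 (SE 0.40, adjusted p = 0.0011). Mki67, the proliferation antigen Ki-67, stood at -0.05, 0.04 and 0.19 in unoperated and at -0.26, 2.62 and 3.0 in PH70 rats, a difference of 2.10 (SE 0.52, adjusted p = 0.0041). Top2a, the topoisomerase that untangles sister chromatids, differed by 2.16 (SE 0.52, adjusted p = 0.0031), from -0.29 to 0.44 in unoperated and from -0.11 to 3.30 in PH70 rats. For these 3 genes 5 PH70 rats lay above all unoperated rats and rat 139 among or below them. Without it the differences were 2.33 for Cdk1, 2.58 for Mki67 and 2.65 for Top2a. All 6 PH70 rats lay above all unoperated rats for 2 of the 44 mitosis genes and for 16 of the 39 replication genes. The share among all genes tested was 3.57%.

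The promoters of replication and mitosis genes share one sequence element and differ in others, and those of 4 genes with large rises are shown for that reason. E2F factors, which open S phase, bind TTTGGCGC, TTTCCCGC or TTTCGCGC, and the late genes of the cycle carry the cell cycle genes homology region (CHR, TTTGAA, with a variant TTCGAA) together with CCAAT boxes bound by NF-Y. Below are the 160 bases before the start of transcription, 5' to 3' on the gene's strand, from RefSeq promoters of the assembly GRCr8, with matches to these letters on either strand in capitals. Mcm6 lies at chr13:42404353-42404512 on the minus strand, Cdk1 at chr20:19265133-19265292 (plus), Top2a at chr10:84473094-84473253 (minus) and Mki67 at chr1:199952594-199952753 (minus).
Mcm6: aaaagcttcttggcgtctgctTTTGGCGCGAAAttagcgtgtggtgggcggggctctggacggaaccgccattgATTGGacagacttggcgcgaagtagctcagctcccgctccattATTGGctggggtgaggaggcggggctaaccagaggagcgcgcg
Cdk1: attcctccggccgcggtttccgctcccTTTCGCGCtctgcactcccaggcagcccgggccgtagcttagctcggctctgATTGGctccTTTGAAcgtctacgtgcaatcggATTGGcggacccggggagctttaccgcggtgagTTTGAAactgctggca
Top2a: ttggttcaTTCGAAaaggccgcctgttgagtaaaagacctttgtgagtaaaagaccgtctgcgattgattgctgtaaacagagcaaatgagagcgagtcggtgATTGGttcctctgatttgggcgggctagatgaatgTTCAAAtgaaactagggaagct
Mki67: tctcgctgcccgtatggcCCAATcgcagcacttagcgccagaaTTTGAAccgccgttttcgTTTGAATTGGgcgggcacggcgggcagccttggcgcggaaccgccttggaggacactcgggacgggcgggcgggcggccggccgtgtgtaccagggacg
In Mcm6 an E2F match on the given strand begins 139 bases before the start and overlaps another form on the opposite strand, and CCAAT boxes begin 86 and 43 bases before it. Cdk1 holds an E2F match at 133 bases and CHR matches at 72 and 16 bases, with CCAAT boxes at 81 and 49 bases. In Top2a a CHR match at 22 bases follows a CCAAT box at 57 bases, and the variant, which reads the same on both strands, lies at 152 bases. In Mki67 the CHR matches lie at 117 and 99 bases, a CCAAT box lies at 142 bases, and the nearer CHR match shares its last base with another.

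Over promoters of 300 bases, 250 before and 50 after the start, an E2F form was present in 15 of the 34 replication genes with a promoter (44.1%), in 1 of 37 mitosis genes (2.7%) and in 2.58% of all 14564 tested genes with a promoter. CHR and a CCAAT box together were present in 25 of the 37 mitosis genes (67.6%), in 1 of the 34 replication genes (2.94%) and in 6.52% of all. The CCAAT box by itself was frequent in both lists, in 29 mitosis genes (78.4%) and 21 replication genes (61.8%), against 37.9% of all. Among the 164 genes called higher by at least 1 log2 unit 15.9% held an E2F form and 30.5% the pair of CHR and CCAAT. Among the 91 called lower by at least 1 unit 0 held an E2F form and 11% the pair. These shares describe letters in a window, and no binding was measured.

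Regulators of entry into the cycle moved less evenly. Of 24 measured G1 cyclins, E2F factors and immediate early genes 12 rose and 1 fell, with a median of 0.32. Ccne1, the cyclin E that starts S phase with Cdk2, ran from -0.79 to -0.15 in unoperated and from -0.21 to 1.98 in PH70 rats, a difference of 1.56 (SE 0.24, adjusted p = 3.5e-05). Its relative Ccne2 rose by 1.14, and the factors E2f8 and E2f1 rose by 1.05 and 0.94. Ccnd1, the cyclin D1 that couples growth signals to the cycle, had values of -0.32, -0.11 and 0.10 in unoperated and of -0.75, 1.11 and 1.52 in PH70 rats. Rat 139 had the lowest Ccnd1 value of all 12 rats. The difference was 0.97 (SE 0.29, adjusted p = 0.016). That call was lost when rat 37 (0.85, adjusted p = 0.05) or rat 136 (0.84, adjusted p = 0.053) was left out, and it was 1.29 without rat 139. Dusp1, an immediate early phosphatase, was the member that fell, by 1.42 (SE 0.28, adjusted p = 0.00052), and in sham rats it differed from unoperated rats by 0.15. Myc, an early growth gene, ran from -0.29 to 0.63 in unoperated and from -0.60 to 0.58 in PH70 rats, with a difference of 0.05 (SE 0.23, adjusted p = 0.94).

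Cdkn1a, the p53 target p21 that restrains cyclin-dependent kinases, rose beside them. Its values were -0.83, -0.33 and 0.11 in unoperated and -0.14, 0.95 and 1.33 in PH70 rats, which overlap through rat 139, and the difference was 1.10 (SE 0.31, adjusted p = 0.011). Cdkn1a and Ccng1 (0.83) were the 2 of 14 p53 targets that rose, where 9.31% of all genes rose, and without rat 139 there were 4. Of 23 DNA repair and checkpoint genes 21 rose and 0 fell (median 0.80), among them Mdc1 (1.65), Fancd2 (1.44), Bard1 (1.22) and Brip1 (1.08), proteins of the response to broken or stalled DNA. Of 13 targets of YAP and TEAD, the factors of the Hippo pathway, 0 were called, and the count was 1 without rat 139.

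The sham group differed from the unoperated rats in the opposite direction for several of these genes, which share the unoperated arrays with the comparison above. Sham minus unoperated was -1.57 for Mki67 (adjusted p = 0.18), -1.55 for Rrm2 (0.27) and -1.42 for Top2a (0.23), none of them called, although for each of the 3 genes all 6 sham rats lay below all 6 unoperated rats. PH70 minus sham was 3.67, 4.67 and 3.59. Measured against unoperated rats, therefore, the rise of these 3 genes came out smaller than against sham-operated rats. The adjusted p-values rest on a spread pooled over all 5 groups, not on the sham and unoperated rats alone. The mitosis list mean ran from -0.59 to -0.42 in sham and from -0.09 to 0.14 in unoperated rats. In PH70 rats it ran from -0.18 to 2.19, and after loss of 30% from -0.25 to 2.17. Mcm6 and H2ax differed little between sham and unoperated rats (-0.16 and -0.11), so their values against both kinds of control were close, 2.41 and 2.56 for Mcm6 and 2.78 and 2.89 for H2ax.

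**Figure D2:**
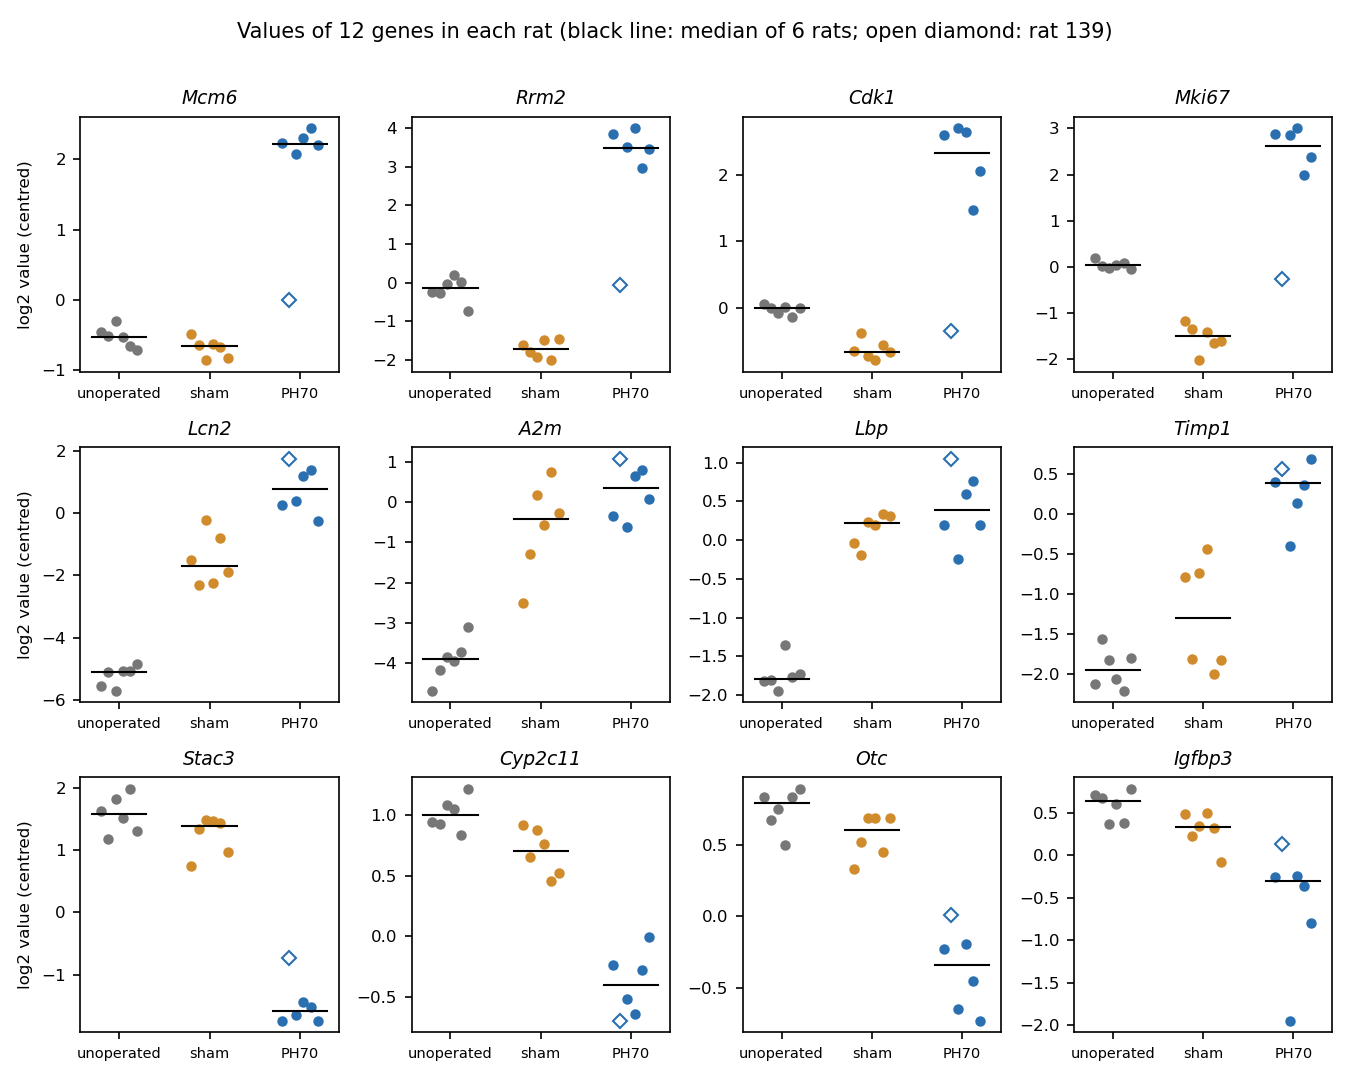
Centred log2 values of 12 genes in each of 6 unoperated, 6 sham and 6 PH70 rats, with the median as a black line and rat 139 as an open diamond. In the upper row rat 139 lies near the unoperated rats and the other 5 PH70 rats far above, while in the middle row all 6 PH70 rats lie above the unoperated rats.

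Machinery for growth rose with the cell cycle, by smaller amounts. Of 39 cytosolic ribosomal proteins 25 rose and 0 fell, with a median of 0.40. Rps20, of the small subunit, had values of -0.66, -0.46 and -0.32 in unoperated and of 0.16, 0.54 and 0.78 in PH70 rats, with no overlap (difference 1.0, SE 0.11, adjusted p = 3e-07). Of 31 ribosome biogenesis genes 12 rose and 0 fell, led by Nop58, a core protein of small nucleolar particles, which ran from -0.32 to 0.05 in unoperated and from 0.42 to 0.83 in PH70 rats (0.81, SE 0.21, adjusted p = 0.0064). Odc1, the first enzyme of polyamine synthesis and an early marker of growing liver, stood at -0.29, -0.24 and 0.05 against 0.21, 0.55 and 0.99. Its groups did not overlap, with a difference of 0.76 (SE 0.18, adjusted p = 0.0022), and Azin1, which protects Odc1 from breakdown, rose by 0.50. Of 9 polyamine synthesis genes 3 rose and 0 fell. Their median difference was 0.09, and 0.01 for PH70 minus sham. In nucleotide synthesis 9 of 23 genes rose and 2 fell, where 9.31% of all genes rose and 9.17% fell. Ctps1 rose by 0.67 and its relative Ctps2 fell by 0.44, and while Rrm2 rose, the p53-induced subunit Rrm2b fell by 0.68 (SE 0.14, adjusted p = 0.00062).

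Of 32 cytoskeletal genes 21 rose and 0 fell. Tubb5, a beta-tubulin of the spindle, ran from -0.55 to -0.23 in unoperated and from -0.01 to 2.04 in PH70 rats, and rat 139 alone lay below 1.65 (difference 1.95, SE 0.30, adjusted p = 2.9e-05). Of 30 proteasome genes 15 rose and 1, Psmd11, fell.

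Chaperones rose in both compartments. Of 13 cytosolic and mitochondrial heat shock genes 10 rose, among them Hspa8, the constitutive Hsp70, which ran from -0.60 to -0.01 in unoperated and from 0.38 to 0.53 in PH70 rats without overlap (0.81, SE 0.12, adjusted p = 2.4e-05). Of 24 genes of the unfolded protein response, which adjusts folding capacity in the endoplasmic reticulum, 13 rose and 1 fell (9 and 3 without rat 139). The median difference of this list was 0.25, while it was 0.19 for sham minus unoperated and 0.07 for PH70 minus sham. Creld2, a folding factor of that compartment, had values of -0.48, -0.31 and -0.21 against 0.50, 0.85 and 1.61, a difference of 1.25 (SE 0.18, adjusted p = 1.5e-05). Dnajb11, Hyou1 and Manf rose by 0.99, 0.94 and 0.92, each with no overlap. The member that fell was Xbp1, a transcription factor of the same response (-0.66, adjusted p = 0.037), whose call did not survive leaving out rats 37, 58, 97, 136, 148, 150 or 151 (adjusted p up to 0.1). Rat 139 had 1.09 for Creld2 and 0.46 for Hyou1, within the range of its group, unlike its cell cycle values.

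Among the acute phase proteins 19 of 28 rose and 1 fell, with a median of 0.35 (16 and 2 without rat 139, and also 2 falls without rat 145 or 152). Lcn2, lipocalin 2, which withholds iron from bacteria, had the largest rise of all genes. Its values were -5.70, -5.09 and -4.83 in unoperated and -0.26, 0.77 and 1.74 in PH70 rats without overlap. It was 63.6-fold higher (5.99, SE 0.46, adjusted p = 6.4e-10). A2m, the protease inhibitor alpha-2-macroglobulin and a major acute phase protein of the rat, stood at -4.68, -3.89 and -3.10 against -0.63, 0.35 and 1.07, and was 18.1-fold higher (4.17, SE 0.37, adjusted p = 1.1e-08). The lipopolysaccharide-binding protein Lbp ran from -1.94 to -1.35 in unoperated and from -0.24 to 1.05 in PH70 rats (2.16, SE 0.17, adjusted p = 1.2e-09). Orm1, the plasma glycoprotein orosomucoid, ran from -1.99 to -1.53 and from 0.06 to 0.58 (2.24, SE 0.16, adjusted p = 8.2e-11). None of these 4 genes overlapped between the groups, and rat 139 was the highest PH70 rat for Lcn2, A2m and Lbp. Wfdc21, a small secreted protein with a whey acidic protein domain, rose by 2.98.

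The share of these rises already present after a sham operation differed from gene to gene. Sham minus unoperated was 1.88 for Lbp and 3.29 for A2m, and PH70 minus sham, 0.28 and 0.89, was not called for either (adjusted p = 0.31 and 0.10). For Lcn2 both steps were called, 3.72 for sham minus unoperated (adjusted p = 1.4e-05) and 2.27 for PH70 minus sham (adjusted p = 0.00065). Stat3, the factor that carries the interleukin 6 signal, rose by 1.03 in PH70 (SE 0.15, adjusted p = 1.2e-05), from a range of -1.16 to -0.95 in unoperated to -0.53 to 0.68 in PH70 rats, and by 1.13 in sham. PH70 minus sham was -0.10 and not called (adjusted p = 0.73), but the spread differed: the 6 sham rats lay between 0.06 and 0.12, and of the PH70 rats 4 lay below and 2 above all of them. Timp1, an inhibitor of metalloproteinases, went the other way. It ran from -2.21 to -1.57 in unoperated and from -0.41 to 0.69 in PH70 rats (2.22, SE 0.30, adjusted p = 6.7e-06), while sham minus unoperated was 0.66 (adjusted p = 0.40) and PH70 minus sham 1.56 (adjusted p = 0.00037).

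**Figure D3:**
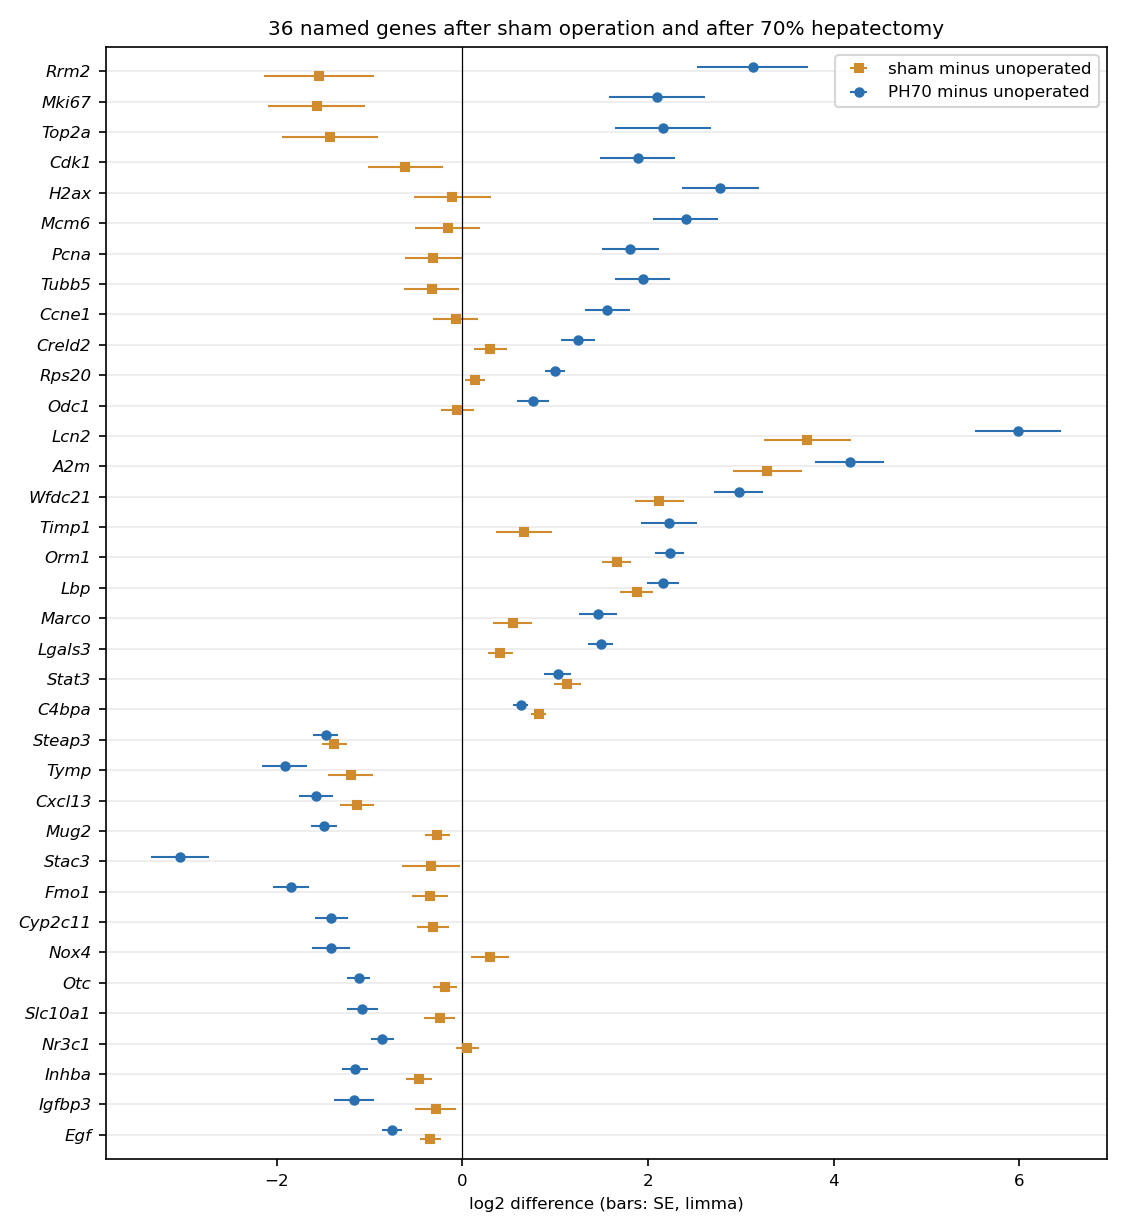
Log2 differences of sham minus unoperated (squares) and PH70 minus unoperated (circles), with limma's SE as bars, for 36 named genes; both use the same 6 unoperated arrays. Steap3 and Stat3 had mean differences of -1.38 and 1.13 after sham and -1.47 and 1.03 after PH70, Stac3 differed by -0.33 after sham and -3.04 after PH70, and Mki67 by -1.57 and 2.10.

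Fibrinogen, the clotting protein whose 3 chains are encoded by Fga, Fgb and Fgg, rose evenly and by little, with differences of 0.33, 0.25 and 0.27 and no overlap for any chain. Mug2, a murinoglobulin and thus a relative of A2m, fell. It had values of 0.68, 0.79 and 1.01 in unoperated and of -0.92, -0.74 and -0.10 in PH70 rats (-1.49, SE 0.14, adjusted p = 1.8e-08), and sham minus unoperated was -0.27. Serpina3c, a serine protease inhibitor, was the acute phase member that fell (-0.71).

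Complement genes divided. Of 25 measured 5 rose and 4 fell: C4bpa (0.63), C9 (0.62), Serping1 (0.56), C5 (0.48) and C4bpb (0.43) rose, and Mbl2, the mannose-binding lectin (-1.19), Cd59b (-0.78), C8g (-0.66) and Masp2 (-0.29) fell. The call of Masp2 was lost when any of rats 37, 58, 97, 136, 148 or 150 was left out. In coagulation 3 of 28 genes, the fibrinogen chains, rose and 10 fell, among them F11 (-0.95), the protein C cofactor Pros1 (-0.85), Hrg (-0.72) and Proc (-0.52). Without rat 139 the falls in coagulation numbered 12. The coagulation mean of rat 139 was 0.16, against -0.31 to -0.08 in the other 5 PH70 rats and at most 0.09 in unoperated rats. For C4bpa, C5, C9 and Serping1 sham minus unoperated was 0.82, 0.68, 0.69 and 0.68, while for Proc it was 0.03.

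Iron handling changed in both directions, with 6 of 23 genes higher and 7 lower, where 9.31% of all genes rose and 9.17% fell. Steap3, a reductase of the endosomal iron cycle, stood at 1.07, 1.19 and 1.44 in unoperated and at -0.47, -0.36 and 0.16 in PH70 rats (-1.47, SE 0.13, adjusted p = 1.2e-08). Sham minus unoperated was -1.38, and PH70 minus sham -0.09. Hamp, the iron hormone hepcidin, rose by 0.71 (adjusted p = 0.019), a call lost without rat 151 (0.63, adjusted p = 0.051), and Slc40a1, the iron exporter ferroportin, fell by 0.73 (adjusted p = 0.0019). Tmprss6, a protease that restrains hepcidin, fell by 0.65.

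Of 35 cytokine and NF-kB genes 7 rose and 4 fell, where 9.31% of all genes rose and 9.17% fell. Cxcl1, a neutrophil attractant, rose by 1.51 (adjusted p = 0.0007), Osmr, the oncostatin M receptor, by 1.23 and Ccl2 by 0.84. Cxcl13, an attractant of B cells, ran from 0.76 to 1.81 in unoperated and from -0.56 to 0.09 in PH70 rats (-1.58, SE 0.18, adjusted p = 6.2e-07), and sham minus unoperated was -1.13. Of 28 interferon-stimulated genes 0 rose and 4 fell, though 5 were called higher when the other groups were left out of the fit.

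Genes of detoxifying enzymes were among those that fell. Among all genes tested 9.17% fell and 9.31% rose. In a cytochrome P450 list 15 of 28 genes fell and 3 rose, with a median of -0.48. Of 25 conjugation enzymes 12 fell and 1 rose, with a median of -0.55. The 1 that rose, the methyltransferase Nnmt (0.41), lost its call without rat 58, 139, 145, 147, 148, 151 or 152. Sult2a1, a sulfotransferase of steroids and bile acids, had the largest fall and also the widest spread. It stood at 0.25, 0.60 and 1.26 in unoperated rats, and 4 PH70 rats lay between -5.10 and -3.53, while rat 58 had -0.59 and rat 59 had 0.87, within the unoperated range (-3.61, SE 1.04, adjusted p = 0.013). Low values also occurred without resection: sham rats 41 and 112 had -3.93 and -3.36, and the other sham rats ran from 0.13 to 1.15. Cyp2c11, the main P450 of the male rat's liver and a target of growth hormone, ran from 0.84 to 1.22 in unoperated and from -0.70 to -0.01 in PH70 rats (-1.41, SE 0.18, adjusted p = 1.9e-06). Fmo1, a flavin monooxygenase, had values of 0.88, 1.29 and 1.68 against -1.15, -0.36 and -0.08 (-1.84, SE 0.19, adjusted p = 1.6e-07). Neither overlapped between the groups, and sham minus unoperated was -0.31 and -0.34. Cyp2b1 (-1.55), Cyp2b2 (-1.30), Cyp2j3 (-1.23) and Gsta2 (-1.45) fell too. The members of the P450 list that rose were Cyp4a1, an omega-hydroxylase of fatty acids (0.89), Cyp1a1 (0.78) and Por (0.80). Por is not a P450 itself but a reductase that feeds electrons to P450s. Rat 139 shared the falls, with -0.70 for Cyp2c11 and -0.08 for Fmo1.

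Of 23 genes of bile acid synthesis and transport 7 fell and 0 rose, and 10 fell without rat 139. Slc10a1, the sodium-dependent transporter that takes bile acids up from blood, ran from 0.47 to 0.55 in unoperated and from -0.93 to 0.09 in PH70 rats (-1.08, SE 0.17, adjusted p = 3.1e-05), with rat 139 the highest. Cyp27a1 fell by 0.63 and Slco1a4 by 1.25. Cyp7a1, the rate-limiting enzyme of bile acid synthesis, spread widely in both groups, from -1.34 to 1.36 in unoperated and from -0.43 to 1.76 in PH70 rats, and was not called (0.61, SE 0.49, adjusted p = 0.48). Nr1i3, the constitutive androstane receptor that controls Cyp2b genes, fell by 0.84 (adjusted p = 0.017).

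Transcripts for the oxidation of fatty acids and the breakdown of amino acids were called lower for some of the enzymes. Of 29 genes of fatty acid oxidation and ketone formation 15 fell and 1 rose. The falls numbered 9 without rat 37 and 17 without rat 139. The 1 that rose, Cpt2 (0.24), lost its call without rat 59 or 152. Bdh1, the enzyme that makes beta-hydroxybutyrate, had values of 0.64, 0.84 and 1.18 in unoperated and of -0.96, -0.69 and 0.79 in PH70 rats. The highest of these was rat 139, and the other 5 lay at -0.28 or below (-1.32, SE 0.23, adjusted p = 0.00016). Crot, which carries peroxisomal fatty acids, fell by 1.27, and Ppara, the receptor that governs the pathway, by 0.89. Of 39 genes of the urea cycle and amino acid breakdown 18 fell and 0 rose. Otc, the urea cycle enzyme ornithine transcarbamylase, ran from 0.50 to 0.89 in unoperated and from -0.72 to 0.01 in PH70 rats without overlap (-1.12, SE 0.13, adjusted p = 4.5e-07). Kmo, of tryptophan breakdown, fell by 1.16 and Bhmt, which remethylates homocysteine, by 1.39.

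In glucose handling 4 of 19 genes rose and 5 fell, where 9.31% of all genes rose and 9.17% fell. Ppp1r3b, which targets a phosphatase to glycogen, ran from 0.70 to 1.22 in unoperated and from -0.92 to 0.05 in PH70 rats (-1.33, SE 0.22, adjusted p = 7.2e-05). Pklr, the liver pyruvate kinase (-1.23), Ugp2, which makes UDP-glucose (-1.05), Pc (-0.83) and Pygl (-0.67) were the others that fell, all 5 without overlap. Those that rose did so by 0.27 to 0.45, and their count was 2 when rat 97, 145, 148, 150 or 151 was left out. Of 20 lipogenesis genes 7 fell and 0 rose, among them the desaturases Fads2 (-1.04) and Fads1 (-0.79). The lipogenesis list mean had a median of 0.28 in unoperated, -0.03 in sham and -0.03 in PH70 rats. Over its genes the median difference was -0.15 for sham minus unoperated and -0.22 for PH70 minus sham. Lipc, the hepatic lipase, fell by 1.20 (SE 0.11, adjusted p = 1.2e-08). Of 18 cholesterol synthesis genes 1, Tm7sf2, was called (-0.51), and the count of falls ran from 0 without rat 59 or 97 to 3 without rat 139 or 150.

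**Figure D4:**
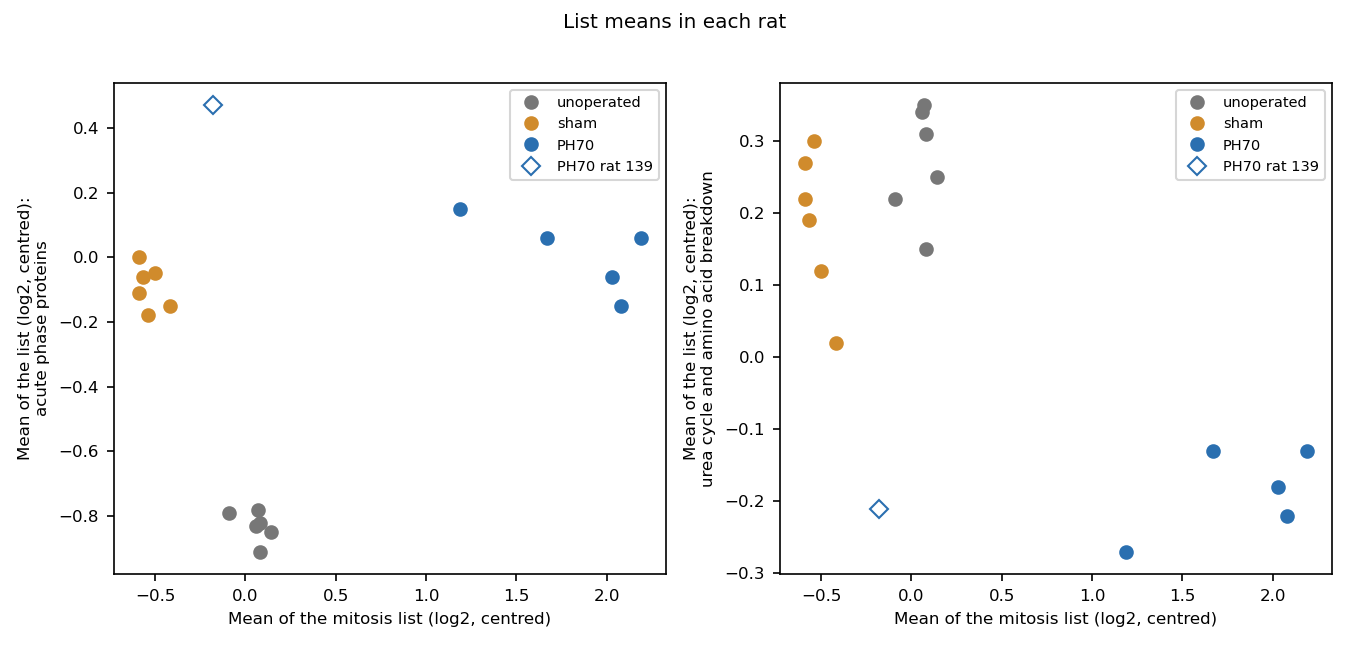
Mean of the mitosis list in each rat (horizontal, centred log2) against the mean of the acute phase list (left) and of the urea cycle and amino acid list (right), for 6 unoperated, 6 sham and 6 PH70 rats. Rat 139 had a mitosis mean of -0.18, below 5 other PH70 rats at 1.19 to 2.19, but the highest acute phase mean of its group, 0.47, and a urea cycle mean of -0.21 among theirs.

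Carrier and lipoprotein genes fell in 13 of 27 members, and all 27 differences were negative (median -0.22). Serpina6, which carries glucocorticoids in plasma, had values of 0.55, 0.76 and 0.83 in unoperated and of -0.86, -0.51 and -0.19 in PH70 rats (-1.24, SE 0.21, adjusted p = 0.00012). Nr3c1, the glucocorticoid receptor, ran from 0.41 to 0.87 and from -0.45 to 0.11 (-0.86, SE 0.13, adjusted p = 1.6e-05), and Hsd11b1, which makes active glucocorticoid, fell by 0.83. None of these 3 overlapped between the groups, and for Nr3c1 and Hsd11b1 sham minus unoperated was 0.05 and 0.00. For Serpina6 the sham rats ran from -0.14 to 0.54, below all unoperated rats. Alb, albumin, differed by -0.09 (SE 0.03, adjusted p = 0.046), a call lost without any of 10 of the 12 rats, and Afp, its fetal relative, by -0.05 (adjusted p = 0.88).

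The growth hormone and insulin-like growth factor axis was lower in 8 of 23 members and higher in 1. The count of falls was 5 without rat 97. The list mean of rat 139 was 0.22, against -0.31 to -0.06 in the other 5 PH70 rats and 0.10 to 0.22 in unoperated rats. Igfbp3, the main carrier of Igf1 in blood, ran from 0.37 to 0.78 in unoperated and from -1.95 to 0.13 in PH70 rats (-1.17, SE 0.22, adjusted p = 0.00032), with rat 37 the lowest. Igfals, the third part of that complex, fell by 0.98 and Igf1 itself by 0.38 (adjusted p = 0.00033). The growth hormone receptor Ghr differed by -0.59 (adjusted p = 0.021), a call lost without rat 97 (adjusted p = 0.07) or rat 136 (adjusted p = 0.062). Igfbp4 rose by 0.52, and Igfbp1, an early gene of regeneration, spread from -2.27 to 0.47 and from -1.66 to 0.97 and was not called (adjusted p = 0.60).

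Of 34 growth factors and receptors 7 fell and 1 rose, where 9.17% of all genes fell and 9.31% rose. The falls numbered 2 without rat 58, 97 or 151 and 3 without rat 37, 147, 148, 150 or 152, and the rises 0 without rat 37, 59 or 151 and 2 without rat 139. Egf, the epidermal growth factor, ran from 0.15 to 0.82 in unoperated and from -0.40 to -0.08 in PH70 rats (-0.76, SE 0.11, adjusted p = 1.5e-05). In sham rats Egf ran from -0.14 to 0.50. Hgf, the mitogen made by stellate and endothelial cells, differed by -0.11 (SE 0.20, adjusted p = 0.81), from -0.23 to 0.03 in unoperated and from -0.86 to 0.68 in PH70 rats, rat 139 being the highest. Among 33 genes of the TGF-beta and activin families Inhba, the activin A subunit that restrains hepatocyte growth, ran from 0.51 to 0.89 and from -0.72 to 0.04 (-1.16, SE 0.14, adjusted p = 8.9e-07). Its sham values ran from -0.09 to 0.58. Tgfb1, another inhibitor, rose by 0.61 (SE 0.12, adjusted p = 0.00058). The family's count of falls, 4, was 2 without rat 58, 145, 147 or 152. Of 27 hepatocyte transcription factors 8 fell and 1 rose, Creb3l3, Foxa2 and Zbtb20 falling by 0.56, 0.50 and 0.38 and Tbx3 rising by 0.53, a call lost without rat 58 or 59.

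Single genes outside these groups were among the largest falls. Stac3, known from the calcium release machinery of skeletal muscle, had values of 1.17, 1.57 and 1.98 in unoperated and of -1.74, -1.58 and -0.73 in PH70 rats. The 5 PH70 rats other than 139 lay between -1.74 and -1.44, and the groups did not overlap (-3.04, SE 0.31, adjusted p = 1.2e-07, 8.21-fold). Sham minus unoperated was -0.33 (adjusted p = 0.78). Tymp, a thymidine phosphorylase, ran from 1.19 to 1.52 and from -1.01 to 0.02 (-1.91, SE 0.24, adjusted p = 2.5e-06), and sham minus unoperated was -1.20 (adjusted p = 0.011). Nrep (-1.85) and Nox4, an oxidase that forms hydrogen peroxide (-1.42), fell as well, and for Nox4 sham minus unoperated was 0.30.

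Markers of other cell types were counted as lists, and their part in the results above was not tested. Their counts stand beside 9.31% of all genes called higher and 9.17% called lower. Of 20 Kupffer cell and macrophage markers 3 rose and 2 fell (5 fell without rat 139 and 1 without rat 37, 97 or 151), and the list mean ran from -0.37 to -0.02 in unoperated and from -0.20 to 0.36 in PH70 rats. Marco, a scavenger receptor, rose by 1.47 (-1.18 to -0.03 against 0.55 to 0.88, SE 0.20, adjusted p = 9.7e-06), and Lgals3, galectin 3, rose by 1.49 (-1.58 to -1.05 against 0.15 to 0.51, SE 0.14, adjusted p = 1.3e-08), while Csf1r fell by 0.55. Of 14 neutrophil markers 5 rose and 0 fell, and the list mean was 0.00 to 0.47 in PH70, highest in rat 139, against -0.16 to -0.09. That count was 3 without rat 139 and 2 without rat 59, and S100a8, at 1.66 in rat 139, rose by 0.80 and by 0.56 without it. T and NK cell markers (0 of 21 higher, 2 lower), B cell markers (0 of 10 called) and red cell markers (0 of 11 higher, 1 lower) had list means that overlapped between the groups. Of 15 sinusoidal endothelial markers 2 rose (1 without rat 58, 136, 145, 147, 150 or 152) and 2 fell. Those falls numbered 4 without rat 139 and 1 without rat 37, 58, 59, 97, 148, 150, 151 or 152. Of 19 stellate and fibroblast markers 3 rose, Timp1 among them, and 4 fell (2 without rat 97), and of 14 bile duct markers 2 rose and 1 fell. Hepatocyte markers fell in 7 of 13 members, with list means of 0.05 to 0.18 in unoperated and of -0.31 to 0.04 in PH70 rats.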

How the data were processed

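RNA from 30 rat livers, 6 in each of 5 groups, was hybridised to 1 array per rat. The authors deposited 1 table of log2 values for 29489 probe sets, summarised by RMA in Affymetrix Expression Console per the submitters' processing notes, with versions not given in the sources used here. That the values are on a log2 scale was read from their range (-6.04 to 5.44), and every probe set had a median of 0 within 5e-07 over the 30 arrays, so levels are lost and only differences between arrays remain. Column medians ran from -0.009 to 0.022 and no arrays were identical. Raw intensities were not used here, and the number of arrays limits the precision.

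Probe sets with exactly 1 gene symbol in the platform annotation (18511; 575 had several and 10403 none) were averaged to 18166 genes. Of 291 genes with several probe sets, 74 had probe sets that correlated below 0. Groups were taken from the stated treatment. One mean per group was fitted to all 30 arrays with limma 3.58.1 in R 4.3.3 (lmFit, eBayes, 25 residual degrees of freedom), p-values were two-sided and adjusted by Benjamini-Hochberg over all genes, and calls were made below 0.05. The fit was tested on simulated data.

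The members and gene lists were chosen with earlier results of these data known, so list counts are descriptions beside the share of all genes called. Genes named are the 20 largest called rises and falls, up to 5 called members of each list in each direction, the 2 largest differences of a list with no call, and, whatever their result, A2m, Afp, Alb, Ccnd1, Cdk1, Cdkn1a, Cyp7a1, Hgf, Igf1, Igfbp1, Lcn2, Mki67, Myc, Odc1 and Stac3, leaving out placeholder symbols and microRNAs; the text names some of these. Promoter letters came from RefSeq (GRCr8), where 14564 tested genes had an entry. Alternatives were other sets of arrays, array weights, other scalings, another choice of probe set, a robust prior, a minimum difference of 1 and sham rats as controls.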

Additional observations from a re-analysis of the deposited data

Results flagged for a closer look

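Each group of 6 rats was examined for a highest or lowest value whose gap to its neighbour, divided by the group's range, exceeded Dixon's critical value for 6. This was done for 44 genes (88 groups) and 54 list means (108 groups), and chance flags about 1 in 20 groups. It marked 12 gene groups and 12 list groups, and PH70 rat 139 was the rat marked in 8 of each.

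Rat 139 lay below the other PH70 rats for Mcm6 (0.00), Rrm2 (-0.05), Mki67 (-0.26), Top2a (-0.11), Tubb5 (-0.01) and Ccnd1 (-0.75), and above them for Stac3 (-0.73) and Mug2 (-0.10). Its list means were low for DNA replication (-0.07), DNA repair and checkpoint (-0.08), oxidative phosphorylation (-0.08), cytosolic ribosomal proteins (0.03) and the proteasome (-0.03). They were high for interferon-stimulated genes (0.44), hepatocyte markers (0.04) and Kupffer cell and macrophage markers (0.36).

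The other marked values were spread over other rats. Among genes they were Lbp in unoperated rat 150 (-1.35), Lgals3 in unoperated rat 145 (-1.58), Marco in PH70 rat 37 (0.55) and Cyp7a1 in PH70 rat 58 (1.76). Among list means they were mitosis in unoperated rat 152 (-0.09), conjugation enzymes in unoperated rat 151 (0.49) and in PH70 rat 97 (-0.49), and adipocyte markers in unoperated rat 145 (0.18).

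Of the 10403 probe sets listed with no gene, which entered no comparison above, 514 (4.94%) were called between PH70 and unoperated rats by limma with Benjamini-Hochberg adjustment, 302 higher and 212 lower. Their largest rise was 2.81 and their largest fall -1.80.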

How the results depend on the processing

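The counts of 1692 higher and 1666 lower genes stayed within 1.5 times under every alternative run except a minimum difference of 1 log2 unit, which left 195 and 112. They were 2352 and 2365 with array weights and 1906 and 1480 with sham rats as controls, and ran from 1475 to 1933 and from 1391 to 1947 when 1 rat was left out. Genes without overlap between the groups, recounted after seeing the data, ran from 697 to 1571 higher and from 815 to 1491 lower when 1 rat was left out, the highest in both being without rat 139. Using only the 12 arrays and leaving out rat 139, also chosen after seeing the data, gave 2351 and 2356. Of 280 called named genes 223 kept their call under all alternatives. Signs turned only for 3 genes that were not called: Afp (0.06 without rats 95 and 139, 0.02 with array weights, and -0.12 to 0.06 when 1 rat was left out, above 0 without rat 139 or 152), Hgf (-0.28 to 0.02 when 1 rat was left out, 0.02 without rat 37) and Myc (-0.01 after quantile normalization, and -0.05 to 0.19 when 1 rat was left out, below 0 without rat 37, 147 or 151). No list median changed sign under another scaling, but the mitosis median was 0.97 in place of 1.53 after quantile normalization. No paired analysis was possible because every rat has a number of its own. With 6 rats against 6 and centred values, small differences and all differences in level between genes are out of reach.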
